A study of Mus musculus with 12 samples.

Results

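Annexins are cytosolic proteins that bind acidic phospholipids when calcium rises, and they take part in membrane repair, vesicle traffic and the organization of the cell cortex. Several of them pair with S100 proteins, small EF-hand calcium sensors: ANXA2 forms a tetramer with S100A10 that binds plasminogen at the cell surface, and ANXA1 binds S100A11. Both families occur in many cell types of the liver, and ANXA2 is low in normal hepatocytes and more abundant in biliary, mesenchymal, endothelial and immune cells. The transcripts described here are the 6 annexins Anxa1 to Anxa6 and the 4 S100 genes S100a4, S100a6, S100a10 and S100a11. They were chosen by symbol, each symbol matched 1 Ensembl identifier of the deposited counts, and all 10 of the 40551 listed genes were among the 15070 that passed the filter on low counts.

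The data are total RNA-seq libraries of 12 mouse livers, 3 of each of 4 genotypes. WT livers were the controls and carried neither change described below. In Mcl1Δhep livers (labelled Mcl1 KO), the antiapoptotic gene Mcl1 was removed by crossing a floxed allele with Alb-Cre. There the albumin promoter drives Cre, which directs the deletion to hepatocytes. Whether each other cell type of the liver kept the gene cannot be read from these bulk libraries. Sting1-/- livers lacked Sting1 in the whole animal (labelled Sting1 KO), and Mcl1Δhep Sting1-/- livers combined both changes (labelled Mcl1 Sting1 DKO). WT and Mcl1Δhep livers were from mice 2 months old, and the age behind the other libraries is not stated beside this measurement. The comparisons ask how hepatocyte Mcl1 deletion changed these transcripts on each Sting1 background, and how Sting1 loss changed them with and without Mcl1. Labels number the livers within a genotype without naming litters or days, so p-values measure the spread between these livers.

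Between 28826367 and 45266387 reads were counted on genes per library. Mcl1 was lower in Mcl1Δhep than in WT livers by a log2 fold change of -1.77 (adjusted p = 0.000605, edgeR's quasi-likelihood test). The libraries labelled Sting1 KO held 1.16, 1.73 and 2.70 CPM of Sting1 (reads relative to the normalized size of the library) and the WT libraries 2.11, 2.43 and 2.53, which overlapped (log2 fold change -0.34, adjusted p = 0.998, edgeR). Sting1 stood at 3.67, 4.59 and 6.0 CPM in Mcl1Δhep livers, above all WT libraries (1.01, adjusted p = 0.0324, edgeR), and at 1.90, 2.33 and 2.53 CPM in Mcl1Δhep Sting1-/- livers, below all Mcl1Δhep libraries (-1.07, unadjusted p = 0.00328, adjusted p = 0.134, edgeR). Which part of Sting1 the allele alters is not given in the sources used here, so these reads do not check the label. The 8 hepatocyte markers summed to 109000 to 173000 CPM in every library. WT replicates 2 and 3 and Mcl1Δhep Sting1-/- replicate 1 had Y-linked transcripts, and the other 9 libraries had at most 0.19 CPM of them. Small structured RNAs took 0.283, 2.37 and 1.36% of counts in Mcl1Δhep replicates 1, 2 and 3 and 0.172 to 0.897% in the other genotypes. Mcl1Δhep replicate 3 also held 1450 CPM of 7 skeletal muscle markers, against at most 7.92 elsewhere.

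In WT livers, the most abundant of these transcripts per unit length was Anxa6, which encodes the largest annexin, with a duplicated core. Levels between genes are given as TPM, counts divided by length and scaled to a common total, here with the length of the canonical transcript. Anxa6 reached 140 ± 27.0 TPM, followed by Anxa5 with 89.7 ± 32.4, Anxa4 with 54.5 ± 7.43 and S100a10 with 47.2 ± 10.2 (mean ± SD, n = 3 each). The libraries of each of these neighbours overlapped. Anxa2, with 22.4 ± 5.86 TPM, lay apart from S100a10 above it and from Anxa1 below it. Anxa1 (5.91 ± 1.69 TPM), Anxa3 (5.73 ± 1.13) and S100a6 (4.76 ± 1.75) overlapped one another in order, and S100a4 (2.09 ± 0.27) and S100a11 (0.368 ± 0.124) closed the list, each apart from its neighbour. With summed exon lengths in place of canonical ones, S100a10 came right after Anxa6, so the order of the abundant genes depends on which transcripts the liver uses.

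The order was different in Mcl1Δhep livers, where Anxa5 came first with 182 ± 23.1 TPM, then Anxa6 with 131 ± 42.8, and next Anxa2 with 129 ± 67.2 (n = 3 each). These 3 annexins overlapped between livers. S100a4 stood at 16.2 ± 11.8 TPM, above Anxa1 with 15.5 ± 5.81, again with overlapping libraries. In Sting1-/- livers, Anxa6 to Anxa2 followed the same order as in WT livers, with Anxa6 at 135 ± 15.3 TPM and Anxa2 at 22.7 ± 1.43. Mcl1Δhep Sting1-/- livers had Anxa5 first with 171 ± 37.7 TPM and Anxa2 below S100a10 with 52.4 ± 14.9. There, the libraries of Anxa5 overlapped those of Anxa6, the next gene, and the libraries of S100a10 overlapped those of Anxa2. The first place of Anxa5 rests on canonical transcript lengths: with summed exon lengths, Anxa6 came first in all 4 genotypes, with 89.8 ± 33.7 TPM against 61.3 ± 10.8 of Anxa5 in Mcl1Δhep livers and 101 ± 13.1 against 59.8 ± 13.4 in Mcl1Δhep Sting1-/- livers.

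**Figure D1:**
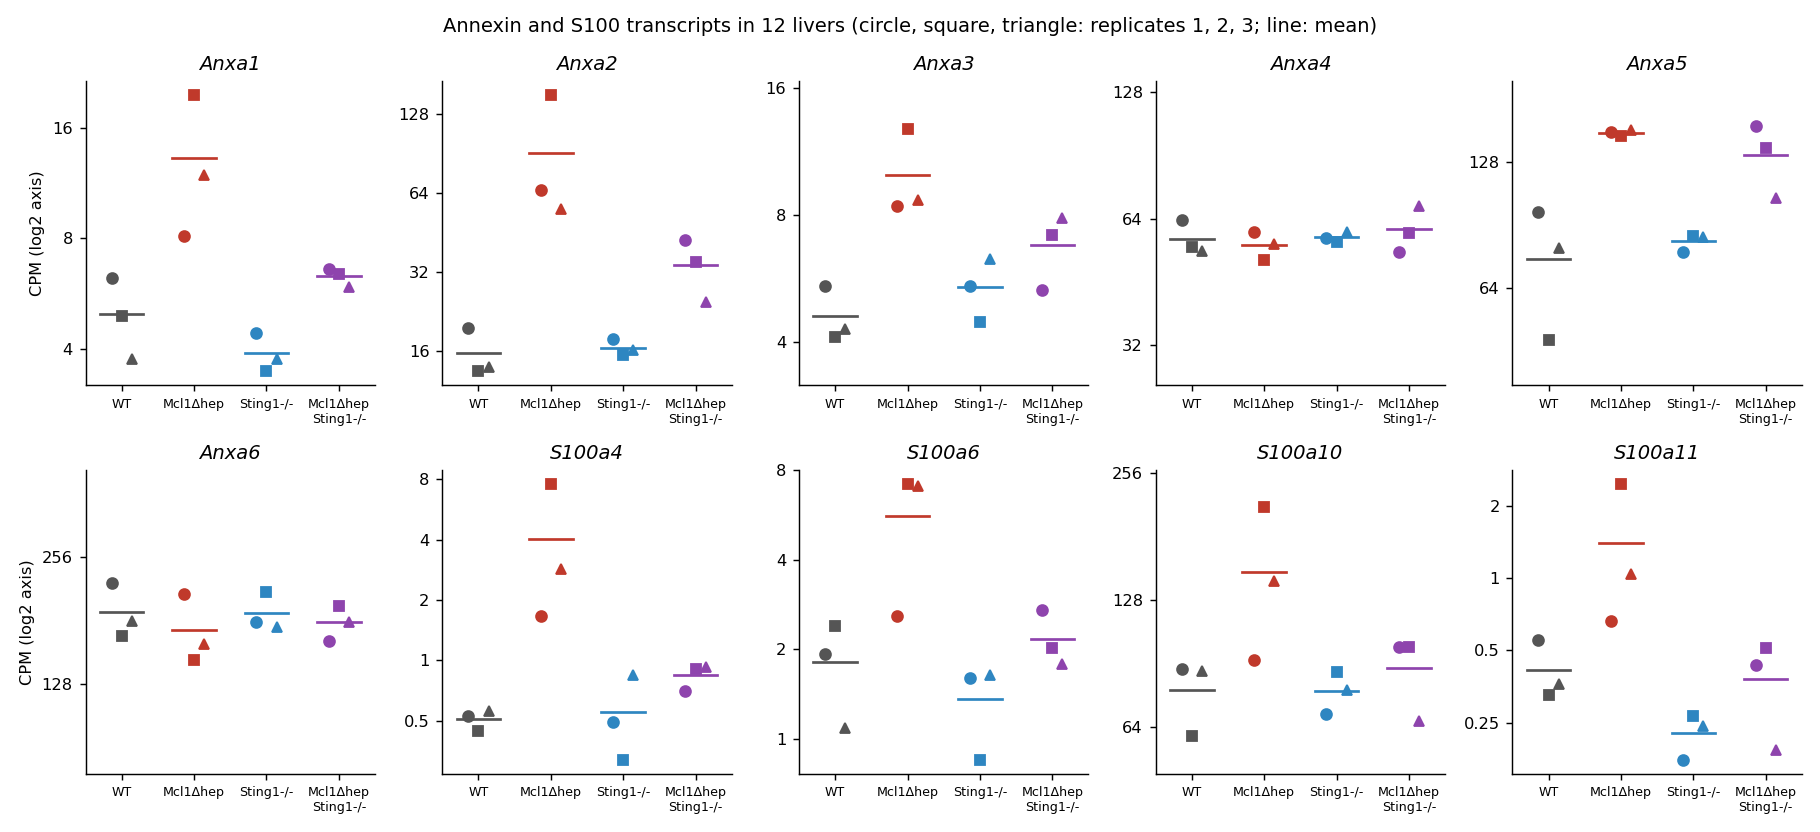
Level of each of the 10 transcripts in CPM (log2 axis) in the 12 livers, by genotype, with a symbol per replicate and a line at the mean. Anxa2 reached 55.6 to 151 CPM in the 3 Mcl1Δhep livers and 13.4 to 19.7 in the WT livers, whereas Anxa4 and Anxa6 overlapped in all 4 genotypes.

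Hepatocyte deletion of Mcl1 with Sting1 intact was accompanied by a rise of 8 of the 10 transcripts. The quasi-likelihood test with Benjamini-Hochberg adjustment over 15070 genes called Anxa1, Anxa2, Anxa3, Anxa5, S100a4, S100a6, S100a10 and S100a11 higher in Mcl1Δhep than in WT livers. Over all tested genes, 10.8% were called higher, and 20.2% in either direction. For the same 8, the 3 Mcl1Δhep livers lay above the 3 WT livers, which held for 16.2% of tested genes. The median log2 fold change was 1.26 over the 10 members and -0.00494 over all tested genes. Because the members were chosen with earlier results of these data known, these shares describe the members and do not test them as a set. Anxa4 and Anxa6, which are among the abundant annexins of WT liver, did not pass the test.

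Anxa2 (ENSMUSG00000032231, plus strand, GRCm39 chr9:69360542-69399077) changed most among the annexins. Its level was 19.7, 13.4 and 13.9 CPM in the WT livers, replicates 1 to 3 in order, and 65.8, 151 and 55.6 CPM in Mcl1Δhep replicates 1 to 3. Every Mcl1Δhep liver was thus above every WT liver, and Mcl1Δhep replicate 2 stood well above the other two. The log2 fold change was 2.53 (standard error, SE, 0.35, 95% interval 1.77 to 3.30, adjusted p = 0.00163), a 5.79-fold rise. It passed the threshold under all 21 alternative settings, with log2 fold changes from 1.94 to 2.79.

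S100a10 (chr3:93462213-93474510, plus strand), whose product is the S100 partner of ANXA2, had a smaller log2 fold change. Its level was 87.6, 60.7 and 86.8 CPM in the WT livers, replicates 1 to 3 in order, and 91.9, 213 and 142 CPM in Mcl1Δhep replicates 1 to 3. The groups did not overlap, but Mcl1Δhep replicate 1 was close to the highest WT liver. The log2 fold change of 0.93 (SE 0.28) had an adjusted p of 0.0361 in the quasi-likelihood test. The call was lost without any one of Mcl1Δhep replicates 2 or 3, Sting1-/- replicates 1 or 3 or WT replicates 1, 2 or 3, with adjusted p-values of 0.0502 to 0.165.

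The ratio of S100a10 to Anxa2 was lower in every liver with the Mcl1 deletion than in every liver without it. In TPM with canonical lengths, it was 1.89, 1.92 and 2.64 in WT livers, 1.63, 2.36 and 2.05 in Sting1-/- livers, 0.592, 0.596 and 1.08 in Mcl1Δhep livers and 0.991, 1.2 and 1.13 in Mcl1Δhep Sting1-/- livers, replicates 1 to 3 in order. Other lengths scale all 12 ratios alike and leave this order as it is. The ratio was formed after the values were known and is given as a description. Among the 9 livers without Y-linked expression, it ranged from 0.592 to 1.2 with the deletion and from 1.63 to 2.36 without it. The only WT liver among these 9 was replicate 1, with a ratio of 1.89, and the others without the deletion were Sting1-/- livers.

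Anxa1 (chr19:20350792-20368374, minus strand) encodes a glucocorticoid-induced annexin whose amino terminus acts on formyl peptide receptors. Its level was 6.25, 4.92 and 3.76 CPM in WT livers and 8.13, 19.7 and 11.9 CPM in Mcl1Δhep livers, with no overlap. The log2 fold change was 1.40 (SE 0.29, adjusted p = 0.00789). S100a11 (chr3:93414382-93435293, plus strand), its S100 partner, rose from 0.554, 0.326 and 0.363 CPM in WT livers to 0.662, 2.48 and 1.04 CPM in Mcl1Δhep livers, a log2 fold change of 1.72 (SE 0.51, adjusted p = 0.0342). S100a11 had only 6 to 81 counts per library over the 12 livers. A processed pseudogene of S100a11 is annotated but is not among the listed identifiers, and how reads matching both places were counted is not given in the sources used here, so its level is uncertain. The call was lost without Mcl1Δhep replicate 2 (adjusted p = 0.181), WT replicate 2 (0.116) or WT replicate 3 (0.102).

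S100a4 (chr3:90511074-90513354, plus strand), known as fibroblast-specific protein and also expressed by monocytes and lymphocytes, had the highest log2 fold change of the 10. Its level was 0.528, 0.445 and 0.561 CPM in WT livers and 1.66, 7.62 and 2.85 CPM in Mcl1Δhep livers. Mcl1Δhep replicate 2 was again the highest, and the groups lay apart. The log2 fold change was 2.97 (SE 0.53, adjusted p = 0.00483), a 7.83-fold rise, and without Mcl1Δhep replicate 2 it was 2.12 and still called. S100a4 rested on 12 to 249 counts per library, and Gm42674, a protein-coding gene annotated on the same strand, overlaps it and had 8 to 162, so reads of these genes cannot be told apart with certainty.

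S100a6 (chr3:90520140-90535843, plus strand), or calcyclin, lies close to S100a4 and showed 1.93, 2.40 and 1.09 CPM in WT livers. Mcl1Δhep replicates 1 to 3 had 2.59, 7.22 and 7.08 CPM, so replicate 1 was barely above the highest WT liver. The log2 fold change was 1.63 (SE 0.42, adjusted p = 0.0207), and the call was lost without Mcl1Δhep replicate 2 (adjusted p = 0.0833), Mcl1Δhep replicate 3 (0.055) or WT replicate 3 (0.0744).

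Anxa5 (chr3:36503072-36530126, minus strand), which binds phosphatidylserine and is used as a probe of dying cells, was the most even among the Mcl1Δhep livers of the genes that rose. Its level was 97.3, 48.2 and 79.8 CPM in WT livers and 151, 147 and 152 CPM in Mcl1Δhep livers. The spread lay in the WT livers, and the log2 fold change was 0.998 (SE 0.22, adjusted p = 0.012). Anxa3 (chr5:96940544-96993828, plus strand) had 5.44, 4.09 and 4.29 CPM in WT livers and 8.40, 12.8 and 8.67 CPM in Mcl1Δhep livers. Its log2 fold change was 1.11 (SE 0.22, adjusted p = 0.00767), and no single library ended the call of either gene.

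Anxa4 (chr6:86713675-86771064, minus strand) and Anxa6 (chr11:54869654-54924305, minus strand) showed no such difference. Anxa4 had 63.7, 54.7 and 53.5 CPM in WT livers and 59.6, 50.9 and 55.6 in Mcl1Δhep livers, a log2 fold change of -0.05 (95% interval -0.33 to 0.23, adjusted p = 0.813). Anxa6 had 222, 166 and 180.4 CPM in WT livers and 210.1, 146 and 159 in Mcl1Δhep livers, a log2 fold change of -0.14 (95% interval -0.52 to 0.24, adjusted p = 0.582). For both, the intervals lie within 0.53 of 0, and the sign of these differences changed with the setting.

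**Figure D2:**
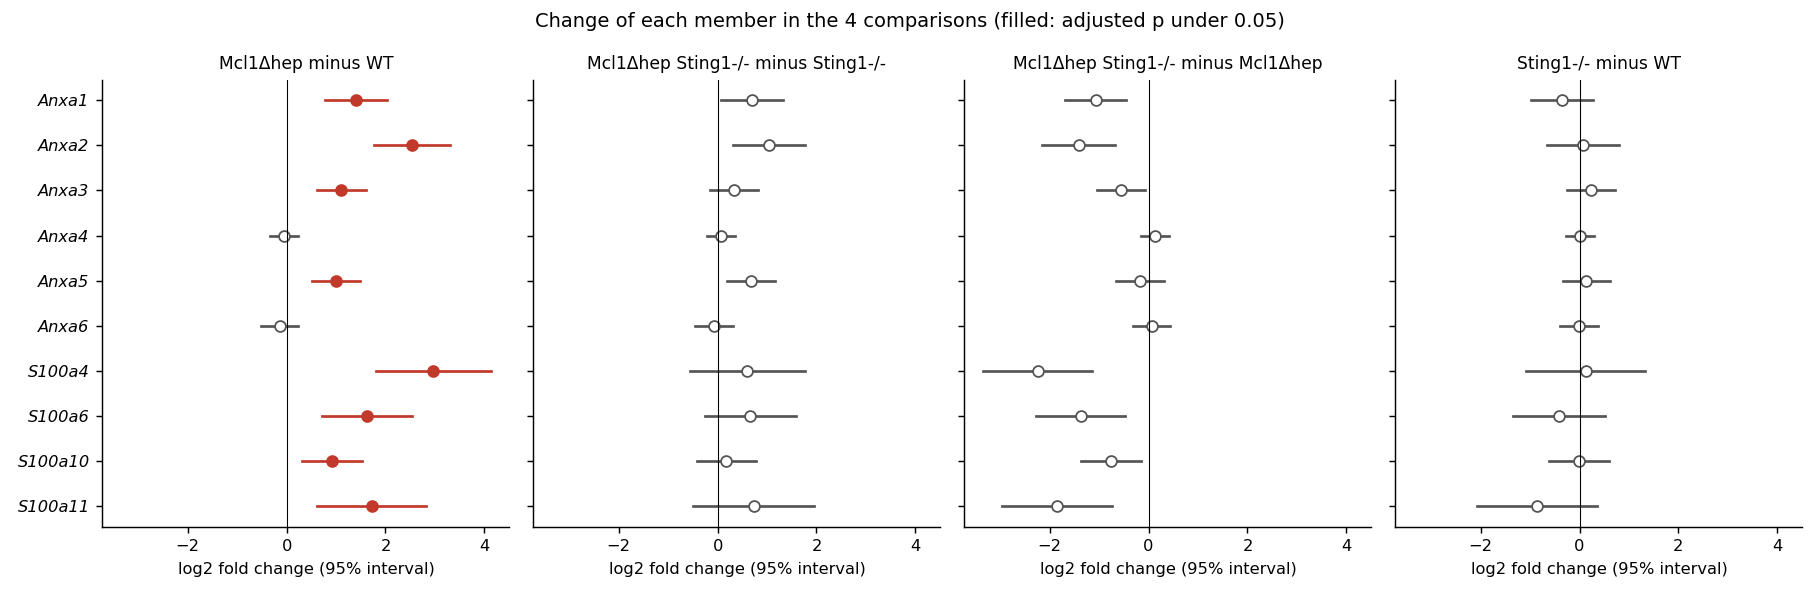
Log2 fold change of the 10 transcripts with its 95% interval in 4 comparisons, filled where the adjusted p is under 0.05. In Mcl1Δhep against WT, 8 intervals lie above 0 and are called, and in the other 3 comparisons none is called.

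The makeup of the annexin transcripts followed from these differences and is given as a description. The summed level of Anxa1 to Anxa6 was 256 to 398 TPM in the 6 livers with intact Mcl1, 430 to 586 in Mcl1Δhep livers and 386 to 485 in Mcl1Δhep Sting1-/- livers. Anxa2 made up 6.42 to 7.97% of that sum in all 6 livers with intact Mcl1. In Mcl1Δhep replicates 1 to 3, its share was 18.5, 36.7 and 17.3%, and in Mcl1Δhep Sting1-/- replicates 1 to 3 it was 14, 11.5 and 9.37%. The 3 sets of livers did not overlap. Anxa6 made up 40.1 to 46.9% with intact Mcl1 and 18.4 to 35.5% in the 6 livers with the deletion. With summed exon lengths, the Anxa2 share was 5.57 to 6.97% in Sting1-/- livers, 5.62 to 6.37% in WT livers, 16.6 to 35.1% in Mcl1Δhep livers and 8.45 to 13.5% in Mcl1Δhep Sting1-/- livers.

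**Figure D3:**
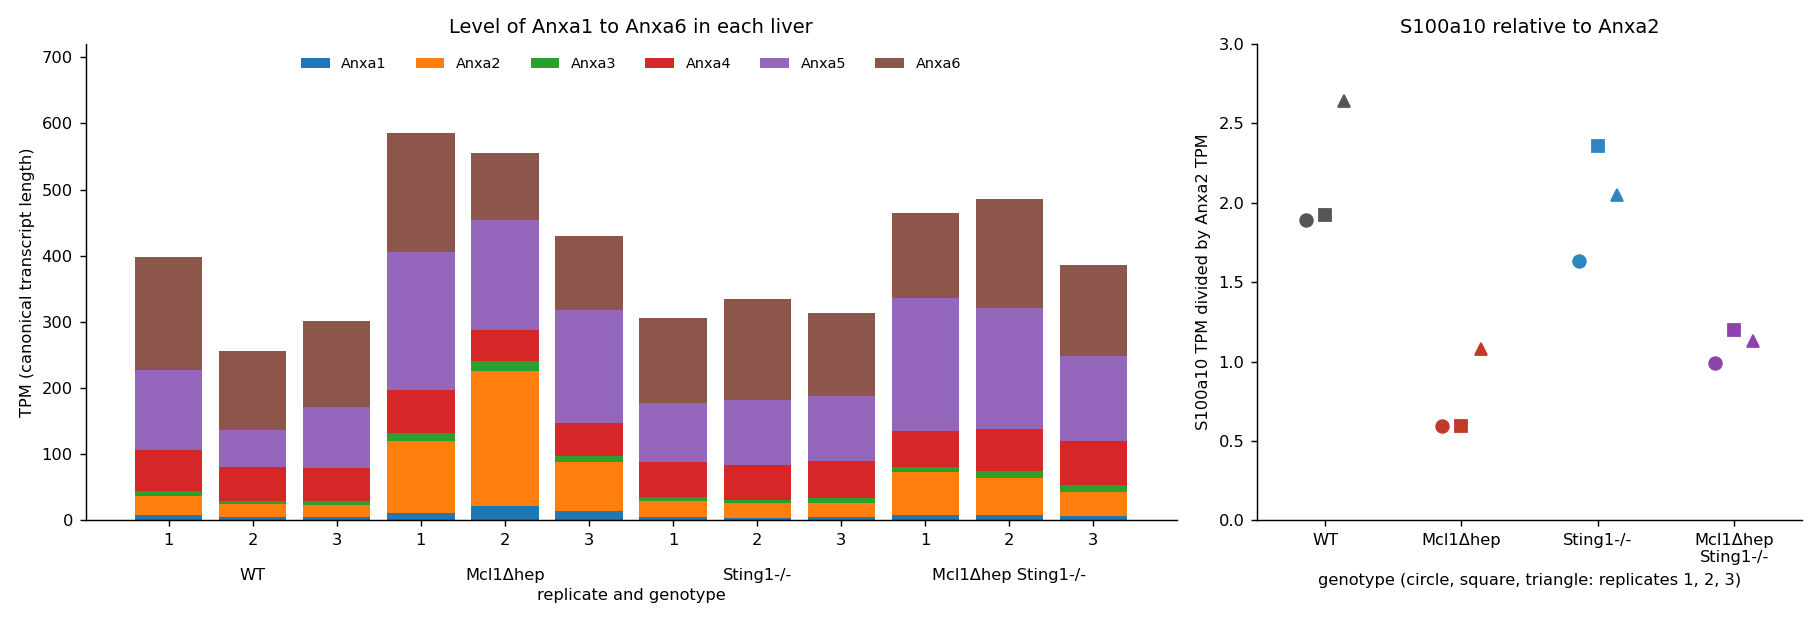
Left, level of Anxa1 to Anxa6 stacked per liver in TPM with canonical transcript lengths. Right, ratio of S100a10 to Anxa2 TPM per liver, where the 6 livers with intact Mcl1 lie between 1.63 and 2.64 and the 6 with the deletion between 0.592 and 1.2.

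Promoters of the members were searched for motifs of transcription factors that respond to injury, growth or interferon, because 8 of the 10 genes rose together. RefSeq promoter sequences (a table made on GRCm38.p6, 250 bases before to 50 after the start) matched 7 of the 10 genes, and their places in GRCm39 come from an exact match found once. S100a10, Anxa3 and Anxa6 had no entry. Both strands were searched. The AP-1 motif TGANTCA was in 2 of 7 genes, Anxa2 and S100a11, and in 7.81% of all 32851 promoters of the table. The TEAD motif GGAATG was in 1 of 7, Anxa1, and in 14.7% of all promoters. Neither the interferon-stimulated response element (3.44% of promoters) nor the STAT motif TTCNNNGAA (8.3%) was in any of the 7, which says only that these letters are not in these windows. None of the matches overlapped another. The 30-base stretches around the matches are shown 5′ to 3′ on the strand of the gene, with the motif in capitals (for Anxa1, its reverse complement):
Anxa2, GRCm39 chr9:69360859-69360888, plus strand, motif at offset -95 from the start: tccaagttggaTGAGTCAcccagcagggtg
S100a11, GRCm39 chr3:93427656-93427685, plus strand, offset -136: cagagacctgtTGAGTCAcagggactacaa
S100a11, GRCm39 chr3:93427754-93427783, plus strand, offset -38: cgggcacagccTGAGTCAggctgaggggcg
Anxa1, GRCm39 chr19:20368254-20368283, minus strand, offset -236: actgcactgaacCATTCCtgtgaggaataa
Each of the 3 AP-1 matches has the same 7 letters, while the bases around them differ. A match is a description of the sequence, and binding was not measured in these livers.

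On the Sting1-null background, the same deletion was measured in 6 other livers. None of the 10 members passed the adjusted threshold in Mcl1Δhep Sting1-/- against Sting1-/- livers, where 0.803% of tested genes did. At an unadjusted p under 0.05, 3 did, namely Anxa1, Anxa2 and Anxa5, against 7.27% of tested genes that were higher at that level. The DESeq2 test also called 0 members. The log2 fold change was above 0 for 9 of 10 members, against 48.5% of all tested genes, with a median of 0.64 against -0.00893.

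Anxa2 had 17.8, 15.5 and 16.1 CPM in Sting1-/- livers and 42.4, 34.9 and 24.7 CPM in Mcl1Δhep Sting1-/- livers. The groups lay apart, with a log2 fold change of 1.04 (95% interval 0.31 to 1.78) that failed the adjustment (edgeR, adjusted p = 0.222). Anxa5 had 78.2, 85.3 and 84.7 CPM and then 155, 138 and 105 CPM, a log2 fold change of 0.68 (95% interval 0.19 to 1.17, adjusted p = 0.234, edgeR). Anxa1 had 4.42, 3.48 and 3.76 CPM and then 6.62, 6.41 and 5.91 CPM, a log2 fold change of 0.70 (95% interval 0.08 to 1.32, adjusted p = 0.365, edgeR). For these genes and for S100a6, the 3 livers with the deletion lay above the 3 without it, which held for 11.5% of tested genes.

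Among the remaining S100 genes, S100a6 had 1.60, 0.849 and 1.64 CPM in Sting1-/- livers and 2.71, 2.02 and 1.78 CPM in Mcl1Δhep Sting1-/- livers (log2 fold change 0.67, adjusted p = 0.636, edgeR). S100a4 had 0.495, 0.318 and 0.844 CPM and then 0.702, 0.902 and 0.93 CPM, a log2 fold change of 0.61 with a 95% interval from -0.55 to 1.76. S100a10, with 68.7, 86.5 and 78.4 CPM and then 99.2, 98.9 and 66.1 CPM, had a log2 fold change of 0.18 (95% interval -0.42 to 0.78). The groups overlapped for S100a4 and for S100a10. S100a11 had 0.175, 0.265 and 0.241 CPM and then 0.434, 0.512 and 0.192 CPM, with an interval from -0.50 to 1.95. Anxa3 (log2 fold change 0.33), Anxa4 (0.06) and Anxa6 (-0.07) overlapped as well.

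Sting1 loss in livers with the Mcl1 deletion was compared directly next, with the Mcl1Δhep libraries that the first comparison also uses. Of the 10 members, 8 were lower in Mcl1Δhep Sting1-/- than in Mcl1Δhep livers, but the quasi-likelihood test called 0 members and 0 of 15070 genes (0% of tested genes). At an unadjusted p under 0.05, 7 members were lower, against 10.2% of tested genes, and DESeq2 called 5 members lower (Anxa1, Anxa2, S100a4, S100a6 and S100a11) among 671 genes. The median log2 fold change was -0.91 over the members and -0.00207 over all tested genes, of which 49.8% were above 0. For Anxa1, Anxa2, Anxa3, S100a4 and S100a11, the 3 Mcl1Δhep Sting1-/- livers lay below the 3 Mcl1Δhep livers, which held for 9.28% of tested genes.

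S100a4 differed most, with 1.66, 7.62 and 2.85 CPM in Mcl1Δhep livers and 0.702, 0.902 and 0.93 CPM in Mcl1Δhep Sting1-/- livers. Its log2 fold change was -2.24 (95% interval -3.35 to -1.13, adjusted p = 0.131 with edgeR and 0.00313 with DESeq2). Anxa2 had a log2 fold change of -1.42 (95% interval -2.15 to -0.68, adjusted p = 0.131 with edgeR and 0.0043 with DESeq2), S100a11 of -1.86 (0.135 and 0.033), S100a6 of -1.37 (0.142 and 0.0303) and Anxa1 of -1.07 (0.133 and 0.0188). S100a10 had -0.76 and Anxa3 -0.55, and Anxa5 had only -0.18 (95% interval -0.66 to 0.31). Without Mcl1Δhep replicate 1, in which all 4 S100 genes, Anxa1 and Anxa3 were lowest of the 3 Mcl1Δhep livers, the quasi-likelihood test called 6 members lower (the 5 named for DESeq2 and S100a10) and 3108 genes.

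The difference between both effects of the Mcl1 deletion was tested as an interaction, which called 0 members and 0% of tested genes in the quasi-likelihood test and 0 members and 172 genes in DESeq2. Unadjusted, 3 members had a p under 0.05, and 7.11% of tested genes did in the same direction. They were S100a4, with a log2 difference of -2.36 (edgeR, adjusted p = 0.277), Anxa2 with -1.49 (0.277) and Anxa3 with -0.78 (0.317). Without Mcl1Δhep replicate 1, S100a4 passed the threshold (-2.74, adjusted p = 0.0259), when 1574 genes did. A rise called on one Sting1 background and not on the other is thus not shown to differ between them with all 12 libraries.

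In livers with intact Mcl1, Sting1 loss moved none of the members past the threshold (0 of 10, also at an unadjusted p under 0.05, and 0 with DESeq2, which called 49 genes). There, edgeR called 0% of tested genes, and 5.45% had an unadjusted p under 0.05. The log2 fold changes of the 10 members lay between -0.86 for S100a11 and 0.23 for Anxa3, with a median of 0.003. S100a11 was the only member whose groups did not overlap, with 0.554, 0.326 and 0.363 CPM in WT livers and 0.175, 0.265 and 0.241 in Sting1-/- livers (95% interval of the log2 fold change -2.08 to 0.36), which held in that direction for 5.46% of tested genes.

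**Figure D4:**
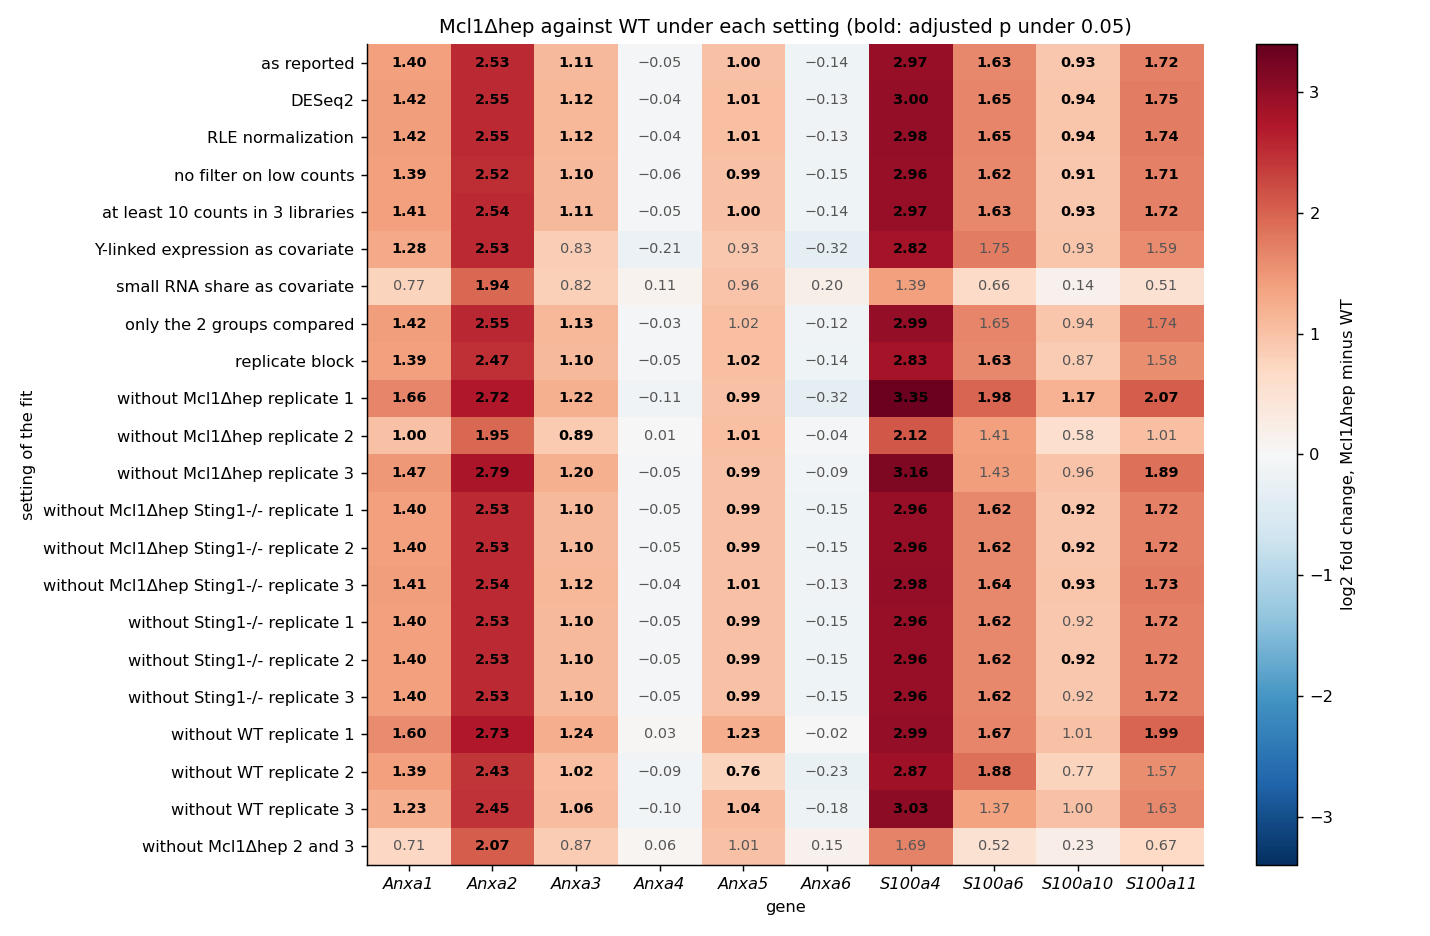
Log2 fold change of each member in Mcl1Δhep against WT livers (columns) under the reported and 21 alternative settings (rows), in bold where the adjusted p is under 0.05. Anxa2 is bold in every row, and with the small RNA share as a covariate it is the only one.

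The 8 calls in Mcl1Δhep against WT livers differed in how far they depended on single libraries and covariates. With Y-linked expression as a covariate, 3 members were called (Anxa1, Anxa2 and S100a4), and with only the 6 livers compared in the fit 4 were (those and Anxa3). A covariate for the small structured RNA share left Anxa2 alone, with a log2 fold change of 1.94 (edgeR, adjusted p = 0.041). In the same fit, S100a4 had 1.39 (adjusted p = 0.137), S100a10 0.14 (0.824) and Anxa5 0.96 (0.13). Without Mcl1Δhep replicates 2 and 3, the libraries with the higher share of small structured RNAs, 1 member was called, and Anxa2 had a log2 fold change of 2.07. That setting was chosen after seeing the data and assumes that the lone Mcl1Δhep liver varies like the other groups. Leaving out Mcl1Δhep replicate 2 or WT replicate 3 gave 5 members each.

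Markers of other cell types moved with the genotypes. In bulk liver, more cells of a type and more RNA per cell cannot be told apart. Monocyte and neutrophil markers summed to 5.9 to 7.43 CPM in WT livers, 6.55 to 8.78 in Sting1-/- livers, 13.9 to 30 in Mcl1Δhep livers and 10.4 to 13.6 in Mcl1Δhep Sting1-/- livers, and all 6 tested of the 7 were called higher in Mcl1Δhep against WT. The neutrophil genes Csf3r, Cxcr2 and Retnlg were among those 6. The remaining marker, Ly6g of neutrophils, was too low to test and had at most 3 counts in any library. Its counts were 0, 1 and 3 in Mcl1Δhep, 0, 1 and 0 in Mcl1Δhep Sting1-/- and 0 in every WT and Sting1-/- library. Stellate cell and fibroblast markers summed to 449 to 725 CPM in WT, 466 to 572 in Sting1-/-, 967 to 1040 in Mcl1Δhep and 715 to 996 in Mcl1Δhep Sting1-/- livers, with 6 of 9 called higher in Mcl1Δhep livers. Des, part of this sum, had 69.9 CPM in Mcl1Δhep replicate 3, the library with skeletal muscle markers, and 7.61 and 9.45 in replicates 1 and 2. For macrophage markers, 4 of 8 were called higher, and 2 of the 8 had a log2 fold change below 0. Their sums were 408 to 640 CPM in WT, 529 to 723 in Sting1-/-, 671 to 803 in Mcl1Δhep and 688 to 809 in Mcl1Δhep Sting1-/- livers. Of the T and NK cell markers, 4 of 6 tested were called higher and 1 had a log2 fold change below 0. They summed to 3.61 to 6.05 CPM in WT, 4.07 to 5.81 in Sting1-/-, 5.75 to 10.4 in Mcl1Δhep and 5.35 to 5.97 in Mcl1Δhep Sting1-/- livers. Proliferation genes summed to 11.1 to 12.6 CPM in WT, 14.9 to 24.4 in Sting1-/-, 59.5 to 184 in Mcl1Δhep and 52.9 to 224 in Mcl1Δhep Sting1-/- livers, and all 7 were called higher in Mcl1Δhep livers. Over all tested genes, 10.8% were called higher in Mcl1Δhep against WT livers. In Mcl1Δhep Sting1-/- against Sting1-/- livers, 5 of the 7 proliferation genes were called higher. Monocyte and neutrophil, stellate cell and fibroblast, macrophage, and T and NK cell markers had 0 calls there. In that comparison, 0.803% of tested genes were called. In Mcl1Δhep against WT livers, cholangiocyte markers had 0 calls, and so had hepatocyte, B cell, endothelial and mesothelial markers. Cholangiocyte markers summed to 19.1 to 35.6 CPM in WT, 26.8 to 30.1 in Sting1-/-, 15.8 to 24.7 in Mcl1Δhep and 20.1 to 29 in Mcl1Δhep Sting1-/- livers. Mesothelial markers summed to 4.28, 3.82 and 17.2 CPM in Mcl1Δhep replicates 1, 2 and 3. Their sums were 6.9 to 13.3 in WT, 5.68 to 11.3 in Sting1-/- and 5.77 to 6.55 in Mcl1Δhep Sting1-/- livers. The part of these cell types in the rise of the annexin and S100 transcripts was not tested.

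Of 6 further annexins (Anxa7 to Anxa11 and Anxa13), 4 were tested and 0 were called in Mcl1Δhep against WT livers by edgeR, with 1 at an unadjusted p under 0.05. Of 12 further S100 genes, 5 were tested and 3 were higher, where 10.8% of all tested genes were called higher. These were S100a8 (log2 fold change 1.95, adjusted p = 0.0174, edgeR) and S100a9 (2.45, adjusted p = 0.0102), whose products form calprotectin of neutrophils and monocytes, and S100a13 (0.67, adjusted p = 0.0413), whose groups overlapped. In Mcl1Δhep Sting1-/- against Sting1-/- livers, edgeR called 0 genes of both lists (2 annexins and 1 S100 gene had an unadjusted p under 0.05), and S100a9 had a log2 fold change of 0.13 (95% interval -0.99 to 1.26).

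Receptors and plasminogen activation, to which annexins and S100 proteins connect at the cell surface, were read from the same fit. Of 5 formyl peptide and S100 receptors, 3 were tested and only Tlr4 was higher in Mcl1Δhep livers (log2 fold change 0.86, adjusted p = 0.00888, edgeR). The formyl peptide receptors Fpr1 (-0.03, 95% interval -0.56 to 0.50) and Fpr2 (0.39, 95% interval -0.50 to 1.28) were not called, and Fpr3 and Ager were too low to test. Of 6 genes of plasminogen and its activation, 4 were higher and 1 was lower, where 20.2% of all tested genes were called in either direction. Plaur, the urokinase receptor gene, had a log2 fold change of 2.24 (edgeR, adjusted p = 0.00133), followed by the tissue activator gene Plat with 1.81 (0.00644), the urokinase gene Plau with 1.54 (0.00285) and the plasminogen receptor gene Plgrkt with 0.85 (0.0463). Plg itself, the hepatocyte gene of plasminogen, was lower with -0.74 (adjusted p = 0.0139). On the Sting1-null background, edgeR called 0 of the 6, with 3 at an unadjusted p under 0.05, and Plaur had a log2 fold change of 0.98 (adjusted p = 0.184).

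Of 14 genes whose products bind annexins or S100 proteins or act beside them in membrane repair, 2 were higher and 1 was lower in Mcl1Δhep livers, a share near the 20.2% of all tested genes called in either direction. Myof, a ferlin of plasma membrane repair, was called on both backgrounds, with log2 fold changes of 1.23 (edgeR, adjusted p = 0.00133) and 0.97 (0.0268), and was the only gene of these 5 lists called in Mcl1Δhep Sting1-/- against Sting1-/- livers. Pla2g4a, a cytosolic phospholipase A2 that annexins can inhibit, had a log2 fold change of 0.84 (adjusted p = 0.0152), and Pdcd6ip, which encodes the ESCRT adaptor ALIX, of -0.37 (0.0463), on the intact background. In the other comparisons, edgeR called 0 genes of these 5 lists.

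Profiles over the 12 livers were compared with that of Anxa2 by the root mean square difference of log2 CPM after centring each gene on its mean. Over the 12550 candidate genes with at least 1 CPM on average, the median difference was 1.1. The 5 nearest were H2ac13 (0.262), Ccr2 (0.286), Gm42743 (0.307), Glipr1 (0.323) and H2bc18 (0.327). H2ac13 and H2bc18 encode core histones, Ccr2 the chemokine receptor of recruited monocytes, and H2bc18 lies within the span of the noncoding gene Gm42743 on the same strand, so these last genes can share reads. Ccr2 had 3.14, 1.48 and 2.08 CPM in WT livers, 5.92, 14.1 and 5.79 in Mcl1Δhep livers, 1.80, 1.91 and 2.15 in Sting1-/- livers and 4.51, 5.48 and 3.59 in Mcl1Δhep Sting1-/- livers. Among the members, Anxa1 (0.461), S100a4 (0.488), S100a11 (0.544) and S100a6 (0.592) were nearest to Anxa2, followed by Anxa3 (0.667), Anxa5 (0.684) and S100a10 (0.689). Anxa4 (1.08) and Anxa6 (1.12) were about as far as the median gene. These livers share their genotypes and library makeup, so likeness describes the profiles only.

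**Figure D5:**
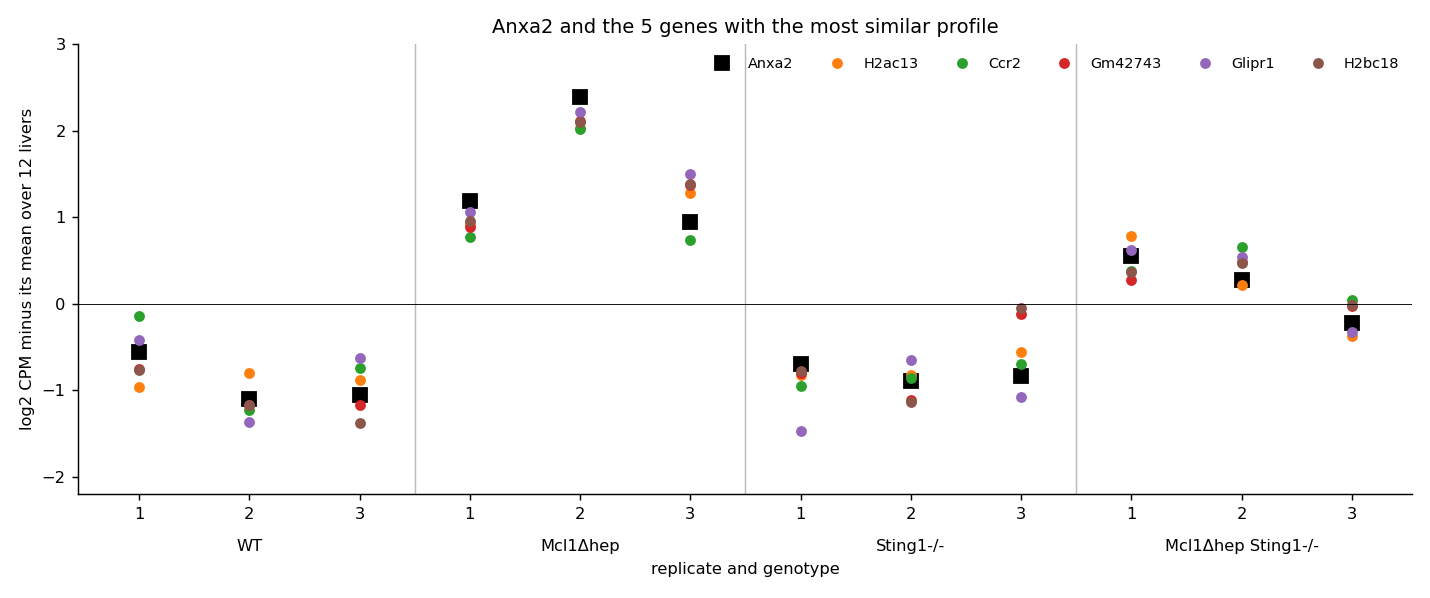
Log2 CPM of Anxa2 (black squares) and of the 5 genes with the most similar profile (coloured circles) in the 12 livers, each centred on its mean. All 6 genes are highest in Mcl1Δhep replicate 2 and above their mean in all 3 Mcl1Δhep livers.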

How the data were processed

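For each liver the authors deposited unnormalized read counts over Ensembl genes. The submitters' processing notes name GRCm39, STAR and featureCounts, and versions, annotation release and use of strand are not given in the sources used here. The labels and the study's methods name different RNA extraction kits. CPM with TMM factors and log2 fold changes were computed with edgeR 4.0.16 in R 4.3.3 (filterByExpr by genotype, glmQLFit and glmQLFTest). The fit used all 12 libraries, 4 group means, no covariate and the default prior count of the package. Adjustment was by Benjamini-Hochberg over 15070 genes, with a threshold of 0.05. A prior count of 2 was used only for the log2 CPM behind the profile likeness and the correlations between livers. Standard errors and 95% intervals come from the F statistic. TPM used lengths of GENCODE vM39, which holds 39533 of the 40551 identifiers. Totals of 28826367 to 45266387 counts per library set the precision of low genes such as S100a11. Alternatives were DESeq2 1.42.0, RLE factors, other filters, covariates, only the groups compared, a replicate block and leaving out libraries.

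The members and all gene lists were chosen with earlier results of these data known. Named genes are the members, called genes of the lists, Mcl1, Sting1 and the 5 genes nearest to the profile of Anxa2. 1 gene of the plasminogen list is not reported here and was left out of its counts. On simulated counts for Mcl1Δhep against WT, 164 of 197 genes changed by a log2 of 2 were recovered among 14820, with 6 false calls. The simulated libraries held no smaller changes and no differences in sex or small RNA share, so these figures do not cover such cases. Figures were drawn with matplotlib 3.10.9.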

Additional observations from a re-analysis of the deposited data

How the results depend on the processing

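Of the member differences under 21 alternatives (20 for the interaction), 6 changed sign in Mcl1Δhep against WT livers, 3 in Mcl1Δhep Sting1-/- against Sting1-/-, 4 in Mcl1Δhep Sting1-/- against Mcl1Δhep, 19 in Sting1-/- against WT and 11 in the interaction. None of these was called in the reported fit. The 8 calls in Mcl1Δhep against WT lost the threshold 38 times, and in Mcl1Δhep Sting1-/- against Mcl1Δhep 11 values passed it. The cause was not tested. S100a11 had no value in Mcl1Δhep Sting1-/- against Sting1-/- under 1 alternative.

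In Mcl1Δhep against WT, the calls fell from 8 members and 3050 genes to 3 and 1531 with Y-linked expression as a covariate, 1 and 407 with the small RNA share as a covariate, 4 and 1178 with only the 2 groups compared, and 1 and 824 with Mcl1Δhep replicate 1 alone, and ranged from 5 to 8 members and 1233 to 5232 genes when 1 library was left out. In Mcl1Δhep Sting1-/- against Sting1-/-, 121 genes became 474 with DESeq2, 45 with the Y-linked covariate, 17 with only the 2 groups, and 1 to 249 without 1 library. In Mcl1Δhep Sting1-/- against Mcl1Δhep, 0 members and genes became 5 and 671 with DESeq2, 0 and 1 with the Y-linked covariate, 0 and 2 with Mcl1Δhep replicate 1 alone, and 0 to 6 and 0 to 3108 without 1 library. In Sting1-/- against WT, 0 genes became 49 with DESeq2, 2 with only the 2 groups, 1 with Mcl1Δhep replicate 1 alone and 0 to 22 without 1 library. In the interaction, 0 genes became 172 with DESeq2, and 0 to 1574 without 1 library, with 0 to 1 members.

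Log2 fold changes whose sign changed were as follows. With the small RNA share as a covariate, Anxa4 had 0.109 and Anxa6 0.197 in Mcl1Δhep against WT, Anxa6 -0.095 in Mcl1Δhep Sting1-/- against Mcl1Δhep, Anxa2 -0.304, Anxa6 0.245 and S100a4 -0.883 in Sting1-/- against WT, and Anxa1 0.034, Anxa4 -0.081, Anxa6 -0.34, S100a6 0.173, S100a10 0.18 and S100a11 0.433 in the interaction. With the Y-linked covariate, Anxa6 had 0.022 in Mcl1Δhep Sting1-/- against Sting1-/-, and Anxa3 -0.053, Anxa4 -0.146 and S100a4 -0.031 in Sting1-/- against WT. With Mcl1Δhep replicate 1 alone, Anxa4 had 0.059 and Anxa6 0.15 in Mcl1Δhep against WT, Anxa6 -0.227 in Mcl1Δhep Sting1-/- against Mcl1Δhep, and Anxa6 -0.222, S100a6 0.148 and S100a11 0.061 in the interaction. Without 1 library, Anxa4 ranged from -0.108 to 0.031 in Mcl1Δhep against WT, Anxa4 from -0.018 to 0.142 and Anxa6 from -0.14 to 0.02 in Mcl1Δhep Sting1-/- against Sting1-/-, Anxa6 from -0.04 to 0.239 in Mcl1Δhep Sting1-/- against Mcl1Δhep and from -0.055 to 0.246 in the interaction. In Sting1-/- against WT, Anxa2 ranged from -0.027 to 0.271, Anxa4 from -0.032 to 0.098, Anxa5 from -0.097 to 0.372, Anxa6 from -0.098 to 0.123, S100a4 from -0.331 to 0.398 and S100a10 from -0.163 to 0.079.

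Over genes, the deviations of same-numbered livers correlated from -0.541 to 0.251, with 3 of 18 pairs over 0.1, and 4 of 12 livers correlated best with their own number. Pairs with different numbers correlated from -0.239 to 0.441. The value of 0.441 joined Mcl1Δhep Sting1-/- replicate 1 and WT replicate 2, which both had Y-linked transcripts. Y-linked expression was not removed from these deviations, so they cannot show whether same-numbered livers shared a litter or day. With the replicate number as a block, 6 members and 2591 genes were called in Mcl1Δhep against WT (S100a10 at an adjusted p of 0.0645 and S100a11 at 0.0535 in edgeR were not), and 0 members in every other comparison.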
